A study of Mus musculus with 12 samples.

Results

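The genes described here are 5 members of the Fxyd family (Fxyd1, Fxyd2, Fxyd5, Fxyd6 and Fxyd7) and the sodium pump subunits Atp1b1 and Atp1b2, 7 genes of 52169 gene symbols counted in the mouse striatum. Each gene was represented by the transcript with the highest mean level over all libraries. The transcripts were thus chosen by measured values, and Fxyd7 was known from earlier results of these data as a gene with a large difference after repeated L-DOPA, so its levels in comparisons that hold chronic libraries are given as a description, with no test. The other members and the gene lists were also chosen with earlier results of these data known. The adjusted p-values below do not allow for that choice. The 12 RNA-seq libraries fall into 4 groups of 3. All mice were of strain C57BL/6J and, per the study's methods, female, and carried a unilateral 6-OHDA lesion in the right medial forebrain bundle, made under desipramine, which spares noradrenergic neurons. This toxin removes the dopamine input to the striatum of that side. After 2 weeks of recovery, L-DOPA was injected at 10 mg/kg with 7.5 mg/kg benserazide, either as a single dose (acute) or daily for 9 days (chronic), and striatal punches were taken 1 hour after the last dose. The groups are thus acute unlesioned, acute lesioned, chronic unlesioned and chronic lesioned striatum. Their age is not given in the sources used here. Lesioned striata without L-DOPA were not analysed here, so that the lesion and the response to L-DOPA on the lesioned side cannot be told apart. Daily dosing for 9 days followed the same 2 weeks of recovery, so the chronic punches were taken later after the lesion. Comparisons of chronic with acute groups, and the change of the lesion effect, thus cannot tell repeated dosing from time since the lesion. They also set separate sets of animals against each other, and the study's methods do not say whether these were processed together.

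The sodium pump exchanges sodium for potassium across the cell membrane and in neurons restores the ion gradients that firing runs down. It is built from a catalytic and a glycosylated beta subunit, and small single-span proteins of the Fxyd family join it and tune its affinity for the ions. The beta subunit carries the pump to the membrane and holds it stable there. In the striatum most neurons are medium spiny neurons, which carry dopamine D1 or D2 receptors.

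The Fxyd family is named for a short signature in its proteins, in which a proline precedes phenylalanine, any residue, tyrosine and aspartate. The coding sequence around it is shown because it is what makes the 5 genes 1 family, while their levels differ. The sequences come from coding transcripts of GENCODE vM1 on the mm9 build and are written 5′ to 3′ on the coding strand, with the 15 bases of the signature in capitals and 15 bases on either side.
Fxyd1: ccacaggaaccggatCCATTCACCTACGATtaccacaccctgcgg
Fxyd2: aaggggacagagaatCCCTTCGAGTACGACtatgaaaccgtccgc
Fxyd5: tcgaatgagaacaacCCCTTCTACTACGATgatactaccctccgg
Fxyd6: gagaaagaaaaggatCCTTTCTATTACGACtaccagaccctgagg
Fxyd7: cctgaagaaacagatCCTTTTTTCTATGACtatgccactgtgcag

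In all 5 of these transcripts an intron splits the signature after base 13 of the 15, inside the aspartate codon. In Fxyd7 the signature lies in exons 2 and 3 of 6, between chr7:31830045 and chr7:31832404 on the minus strand, and the intron inside it has 2345 bases. In Fxyd1 it lies in exons 3 and 4 of 8, between chr7:31838492 and chr7:31838924, with an intron of 418 bases. In Fxyd6 it lies in exons 3 and 4 of 8 on the plus strand, between chr9:45198743 and chr9:45198861. In Fxyd2 it lies in exons 2 and 3 of 6, between chr9:45216215 and chr9:45216384. In Fxyd5 it lies in exons 7 and 8 of 8, between chr7:31820301 and chr7:31820417. Over the 45 bases, Fxyd7 was identical to Fxyd1 at 28 positions, to Fxyd6 at 27, to Fxyd5 at 24 and to Fxyd2 at 22. The coding parts give 80 residues for Fxyd7, 92 for Fxyd1, 94 for Fxyd6, 82 for Fxyd2 and 185 for Fxyd5.

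Fxyd5, Fxyd7 and Fxyd1 stand in a row on the minus strand of chromosome 7. The most abundant Fxyd7 transcript spans chr7:31827536-31836481 and lies 215 bases from that of Fxyd1 (chr7:31836697-31840675) and 398 bases from that of Fxyd5 (chr7:31817749-31827137). Fxyd6 (chr9:45178268-45204242) and Fxyd2 (chr9:45207792-45218361) are neighbours on chromosome 9. Atp1b1 spans chr1:166367242-166388132 on the minus strand and Atp1b2 chr11:69413243-69419444 on the minus strand. None of the 5 Fxyd transcripts or that of Atp1b2 overlaps a transcript of another gene in the table. The 3′ end of Atp1b1 overlaps Nme7 on the opposite strand by 615 bases. The library kit marks no strand, so that reads there cannot be told apart. A transcript of 1 exon with no gene symbol, at a mean of 0.145 CPM, also lies within the span of Atp1b1 on the same strand.

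Levels are given as CPM, the reads on a transcript per 1000000 reads of the library after scaling by TMM, and levels of different genes are compared per kilobase of transcript. Per kilobase, Atp1b1, the common beta1 subunit, was by far the most abundant of the 7 genes, with a mean level of 97.9 CPM in the acute unlesioned striatum. Atp1b2, the beta2 subunit, known also as an adhesion molecule on glia, followed at 19.0. Among the Fxyd genes Fxyd7 came first with 6.06, then Fxyd1 with 5.26, Fxyd6 with 4.09, Fxyd2 with 1.51 and Fxyd5 with 0.311, and in these 3 libraries no neighbours in this order overlapped. In the chronic lesioned striatum the order was another. Fxyd1 at 4.40 and Fxyd6 at 3.82 came first among the Fxyd genes and overlapped, and Fxyd7 at 1.19 lay beside Fxyd2 at 1.20, which it overlapped too.

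Fold changes below come from edgeR's quasi-likelihood test over all transcripts that passed a filter on low counts, with p-values adjusted by Benjamini-Hochberg over all of them. A gene is said to rise or fall only at an adjusted p under 0.05. All 7 transcripts passed the filter in each comparison. One library stands apart. The chronic unlesioned replicate 2 held 451 CPM of Ttr, the most abundant transcript of the choroid plexus, against at most 1.5 in any other library, and the sum of 8 choroid plexus markers was 490 CPM against 3.88 to 11.9 elsewhere. The sum of 6 leptomeninges markers was also highest there, at 24.7 CPM against 5.21 to 11.7. For the genes named below, fold changes that rest on this library are also given without it. Total counts ran from 87695043 to 173116525 per library. Fosb, an immediate early gene, was higher in lesioned libraries by 4.67 (acute) and 4.94 (chronic, or 4.89 without that library) on the log2 scale, and Drd1a, the D1 receptor, fell by 2.30 and 1.32 (-1.37 without it), which checks the side of the lesion in the labels. The 10 medium spiny neuron markers, some of which respond to dopamine, summed to 1840 to 2610 CPM in all libraries, and 9 of them were called in the acute (4 higher, 5 lower) and 4 in the chronic lesion effect (3 higher, 1 lower).

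**Figure D1:**
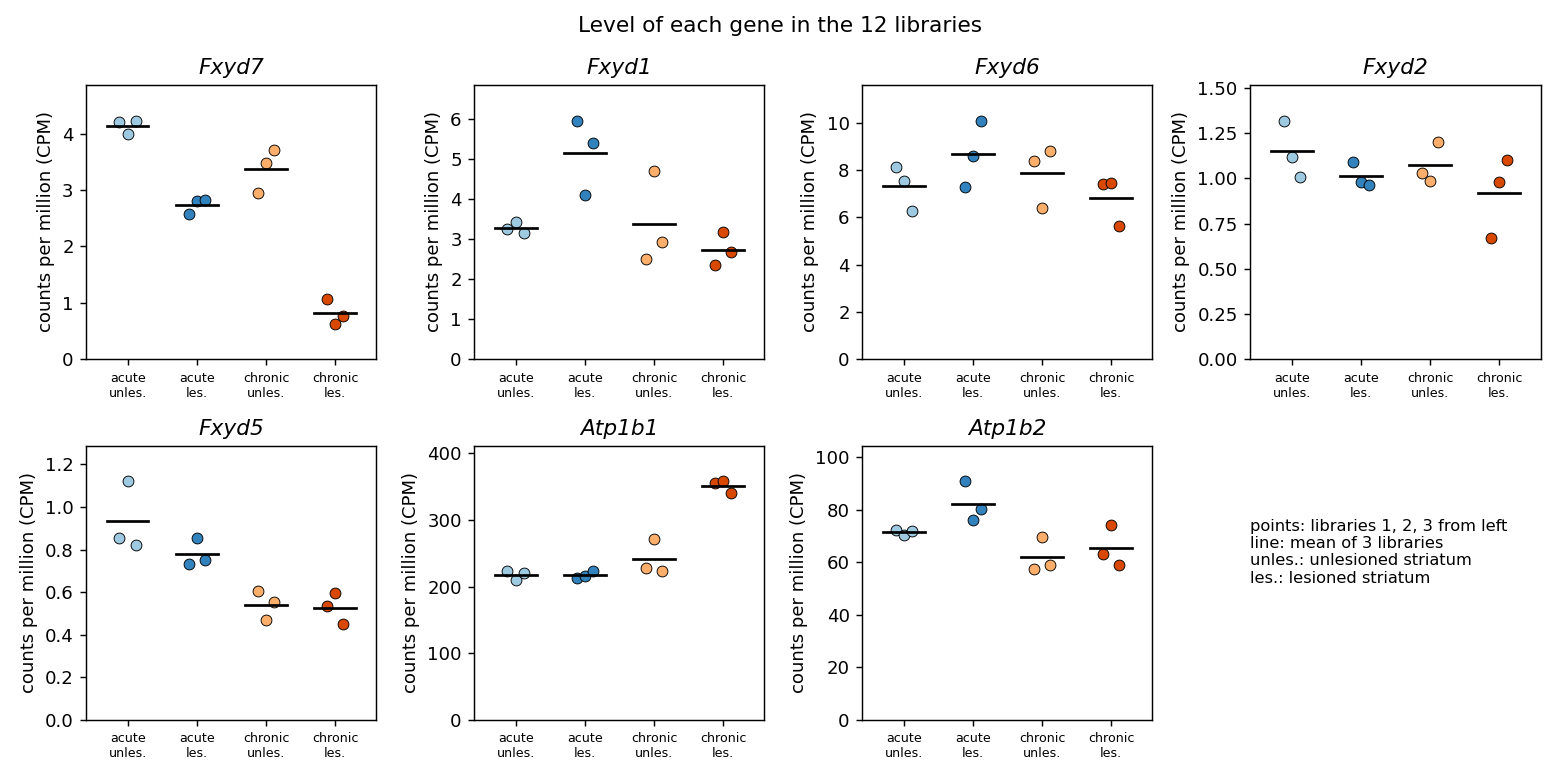
CPM of the 7 genes (y axes, from 0) in each of the 12 libraries, 3 per group along the x axis, with the mean of each group as a line. Fxyd7 stood at 0.613 to 1.06 CPM in the chronic lesioned libraries, below all others, while Atp1b1 stood at 341 to 358 CPM, above all others.

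Fxyd7, the Fxyd protein restricted to the brain, was lower in the lesioned striatum at both times. In the acute unlesioned striatum its level was 4.21, 3.99 and 4.23 CPM in replicates 1 to 3, and in the acute lesioned striatum 2.58, 2.81 and 2.82 CPM. The groups did not overlap. The level fell by 0.59 on the log2 scale (SE 0.08, edgeR adjusted p = 5.25e-04), a fall of 33.7%. In the chronic unlesioned striatum the libraries gave 2.95, 3.48 and 3.71 CPM, below all acute unlesioned ones. In the chronic lesioned striatum they gave 1.06, 0.613 and 0.761 CPM, resting on 93, 67 and 83 reads. All 3 chronic lesioned libraries lay below all other libraries of the study.

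As a description, the Fxyd7 level in the chronic lesioned striatum was lower than in the chronic unlesioned one by a log2 fold change of -2.07 (SE 0.18), a remaining level of 0.238 of the other side. Against the acute lesioned striatum the log2 fold change was -1.77 (SE 0.17), and between the unlesioned groups it was -0.29 (SE 0.09). The lesion effect was thus larger in size after 9 days than after 1 day by 1.48 on the log2 scale (log2 difference -1.48, SE 0.19). Without the chronic unlesioned replicate 2 the chronic lesion effect was -2.06, the value between the unlesioned groups -0.31 and the change -1.46. Leaving out any 1 library or changing the scaling, filter or tool kept the chronic lesion effect between -2.29 and -1.90. All 3 Fxyd7 transcripts of the table, which share reads, gave values from -2.08 to -2.06. In the acute comparison all 3 fell, by 0.59 to 0.62 on the log2 scale.

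Markers of cortical neurons were lower on the lesioned side too. The 8 markers of cortical glutamatergic neurons summed to 15.9 to 33.8 CPM in the acute unlesioned, 5.78 to 19.7 in the acute lesioned, 8.87 to 46.1 in the chronic unlesioned and 4.88 to 26.4 CPM in the chronic lesioned libraries, and none was at 0 in any library. The groups overlapped, but the sum was lower on the lesioned side in all 6 pairs of same-numbered libraries, the direction of Fxyd7. The median log2 fold change was -1.23 over the 8 markers tested in the acute and -1.52 over the 7 tested in the chronic lesion effect. Of these, 2 passed the threshold in the acute comparison, 1 higher and 1 lower, and 0 in the chronic one by edgeR (1 at an unadjusted p under 0.05, and 0 by DESeq2). The chronic lesioned replicate 1 held 26.4 CPM of the cortical markers and 1.06 CPM of Fxyd7, while the chronic unlesioned replicate 2 held 8.87 CPM of them and 3.48 CPM of Fxyd7. The fold changes of Fxyd7 without the former were -1.99 between the lesioned groups and -1.70 for the change of the lesion effect. The part of cortical tissue in the Fxyd7 values was not tested.

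Of 12794 genes with a mean of at least 1 CPM, the 5 whose log2 CPM followed Fxyd7 most closely over the 12 libraries were Ankrd34a (Pearson r 0.977), Plxdc1 (0.968), Prosapip1 (0.963), Ppp1r9b (0.962) and Itga9 (0.961). Ppp1r9b encodes spinophilin, a scaffold of protein phosphatase 1 in dendritic spines. The libraries share their groups, so these values mostly carry the order of the 4 groups, and the genes were picked from this list for their value.

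Fxyd1, or phospholemman, the family member that is phosphorylated by protein kinases A and C, went the other way after a single dose. It read 3.25, 3.42 and 3.16 CPM in the acute unlesioned libraries and 5.97, 4.10 and 5.40 CPM in the acute lesioned ones. The groups did not overlap, and the level rose by 0.67 (log2, SE 0.12, edgeR adjusted p = 2.98e-03), or by 59.4%. The rise was past the threshold in all 13 alternative analyses, with 0.55 to 0.80. All 6 Fxyd1 transcripts rose, by 0.67 to 0.83.

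After 9 days Fxyd1 did not rise. The chronic unlesioned libraries gave 2.50, 4.71 and 2.93 CPM of Fxyd1, and the chronic lesioned ones 2.35, 3.19 and 2.69 CPM, so that the groups overlapped, while in all 3 same-numbered pairs the lesioned side was the lower. The highest value is that of replicate 2 of the unlesioned side, the library with the choroid plexus transcripts. The log2 fold change was -0.29 (SE 0.21, edgeR adjusted p = 0.430) with this library and 0.01 (adjusted p = 0.971) without it. With a block for the replicate it was -0.27 (edgeR adjusted p = 0.0919). Compared across time on the lesioned side, Fxyd1 fell by 0.91 (log2, SE 0.15, edgeR adjusted p = 2.02e-03), to 0.531 of its acute level, and all 3 chronic libraries lay below all 3 acute ones. On the unlesioned side the log2 fold change between chronic and acute was 0.05 (SE 0.18), and -0.27 without replicate 2 of the chronic group (edgeR adjusted p = 0.103).

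The change of the Fxyd1 lesion effect between the single and the repeated dose was -0.96 (log2, SE 0.27), with an adjusted p of 0.0595 that missed the threshold. Same-numbered libraries of the 2 sides deviated together, and a fit with a block for the replicate gave -0.93 with an edgeR adjusted p of 2.46e-03. Without the chronic unlesioned replicate 2 and without the block it was -0.65 (adjusted p = 0.0922). Over all alternatives the adjusted p ran from 2.46e-03 to 0.147, and the value from -1.12 to -0.65.

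Markers of glia also differed between these groups. The 8 astrocyte markers summed to 312 to 333 CPM in the acute unlesioned libraries and to 368 to 443 CPM in the acute lesioned ones, and 4 of them rose (median log2 fold change of the 8, 0.26). In the chronic groups the sums were 276 to 310 CPM (unlesioned) and 322 to 376 CPM (lesioned). There 1 marker rose, Gfap, at 11.2 to 19.6 and 39.1 to 67.8 CPM, and the median of the 8 was 0.07. The 8 oligodendrocyte markers summed to 2160 to 2420, 2180 to 3620, 1610 to 2330 and 1210 to 2160 CPM in the same order of groups. Their sum was higher on the lesioned side in all 3 acute pairs of same-numbered libraries and lower in all 3 chronic ones, the directions of Fxyd1. The astrocyte and microglia sums were higher on the lesioned side in all 3 pairs at both times, against the direction of Fxyd1 in the chronic pairs. Of the oligodendrocyte markers 1 was called in the acute lesion effect by edgeR (3 by DESeq2) and 0 in the chronic one. Between the lesioned groups all 8 fell by edgeR, with a median of -0.84, while DESeq2 called 2 of them. Of the 8 microglia markers 4 rose in the acute lesion effect (median 0.28), and 6 fell between the lesioned groups (median -0.61). No astrocyte, oligodendrocyte or microglia marker was at 0 in any library, and their part in the Fxyd1 result was not tested. In tissue of several cell types, fewer cells of a type and less RNA per cell cannot be told apart.

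**Figure D2:**
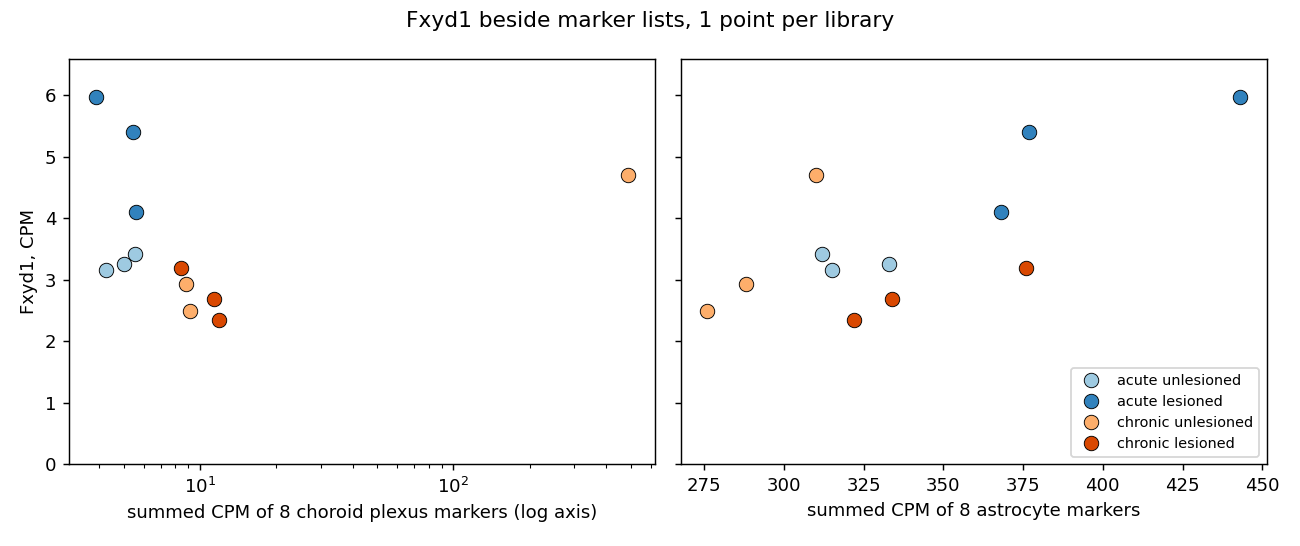
Fxyd1 in CPM (y axis) against the summed CPM of 8 choroid plexus markers (left, log x axis) and of 8 astrocyte markers (right), 1 point per library, coloured by group. The chronic unlesioned replicate 2 lies apart at 490 CPM of choroid plexus markers with 4.71 CPM of Fxyd1, and the acute lesioned libraries, at 368 to 443 CPM of astrocyte markers, hold 4.10 to 5.97 CPM.

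Fxyd6, the neighbour of Fxyd2 and an Fxyd protein of brain and inner ear, was not called in any comparison over all its libraries. Its level was 8.15, 7.56 and 6.27 CPM in the acute unlesioned libraries and 7.29, 8.62 and 10.1 CPM in the acute lesioned ones. The chronic libraries gave 8.39, 6.39 and 8.82 CPM on the unlesioned and 7.42, 7.46 and 5.65 CPM on the lesioned side. The groups overlapped at both times. The log2 fold change was 0.25 (SE 0.12, edgeR adjusted p = 0.191) after the single dose and -0.20 (SE 0.14, adjusted p = 0.428) after 9 days, and -0.33 without the chronic unlesioned replicate 2 (edgeR adjusted p = 0.130). Without the acute lesioned replicate 1 the acute value was 0.37 and passed the threshold (edgeR adjusted p = 0.0437). Between the lesioned groups it was -0.34 (SE 0.14, adjusted p = 0.0923) and passed without the acute lesioned replicate 1 (-0.46) or the chronic lesioned replicate 2 (-0.42).

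Fxyd2, the gamma subunit best known from the kidney, read 0.966 to 1.32 CPM in the acute libraries and 0.673 to 1.20 CPM in the chronic ones. Its log2 fold changes were -0.18 (SE 0.13) and -0.22 (SE 0.18) for the acute and chronic lesion effect, and neither passed the threshold. Without the chronic unlesioned replicate 2 the latter was -0.28. The transcript with the highest level is annotated as non-coding, and all 7 Fxyd2 transcripts lay between -0.24 and -0.17 in these comparisons.

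Fxyd5, or dysadherin, a glycosylated Fxyd protein linked to cell adhesion, differed between the single and the repeated dose and not detectably between the sides. The acute unlesioned libraries held 0.856, 1.12 and 0.823 CPM and the chronic unlesioned ones 0.603, 0.469 and 0.553 CPM. It fell by 0.78 on the log2 scale (SE 0.17, edgeR adjusted p = 0.0397) on this side, and by 0.69 without the chronic unlesioned replicate 2 (edgeR adjusted p = 0.0281). On the lesioned side it went from 0.734, 0.855 and 0.753 CPM to 0.536, 0.595 and 0.449 CPM, a fall by 0.56 (SE 0.17, edgeR adjusted p = 0.0376). On both sides the groups did not overlap. The call on the unlesioned side was lost on leaving out any library but the chronic unlesioned replicate 2, and that on the lesioned side with DESeq2 (adjusted p = 0.0990) and on leaving out any but the chronic lesioned replicate 2, with values from -0.85 to -0.45 and adjusted p up to 0.158 throughout. Fxyd5 rests on 47 to 154 reads per library, the lowest depth of the 7 genes. The 8 microglia markers summed to 74.7 to 77.8 CPM in the acute unlesioned and 50.4 to 65.2 CPM in the chronic unlesioned libraries, and to 83.2 to 97.6 and 53.3 to 67.0 CPM on the lesioned side. Between the lesioned groups 6 of these 8 fell and between the unlesioned groups 3. The 4 blood markers summed to 4.01 to 7.97 CPM in the acute and 1.65 to 4.05 CPM in the chronic unlesioned libraries, and to 4.98 to 9.77 and 1.69 to 3.26 CPM on the lesioned side, where 3 of the 4 fell. Their sum, like Fxyd5, was highest in replicate 2 of both acute groups and of the chronic lesioned group. In the chronic unlesioned group the sum was highest in replicate 2 (4.05 CPM), where Fxyd5 was lowest (0.469 CPM). The part of microglia and blood in the Fxyd5 difference was not tested. The lesion effect on Fxyd5 was -0.25 (SE 0.15) in the acute and -0.04 (SE 0.19) in the chronic groups (-0.13 without the chronic unlesioned replicate 2), all short of the threshold.

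**Figure D3:**
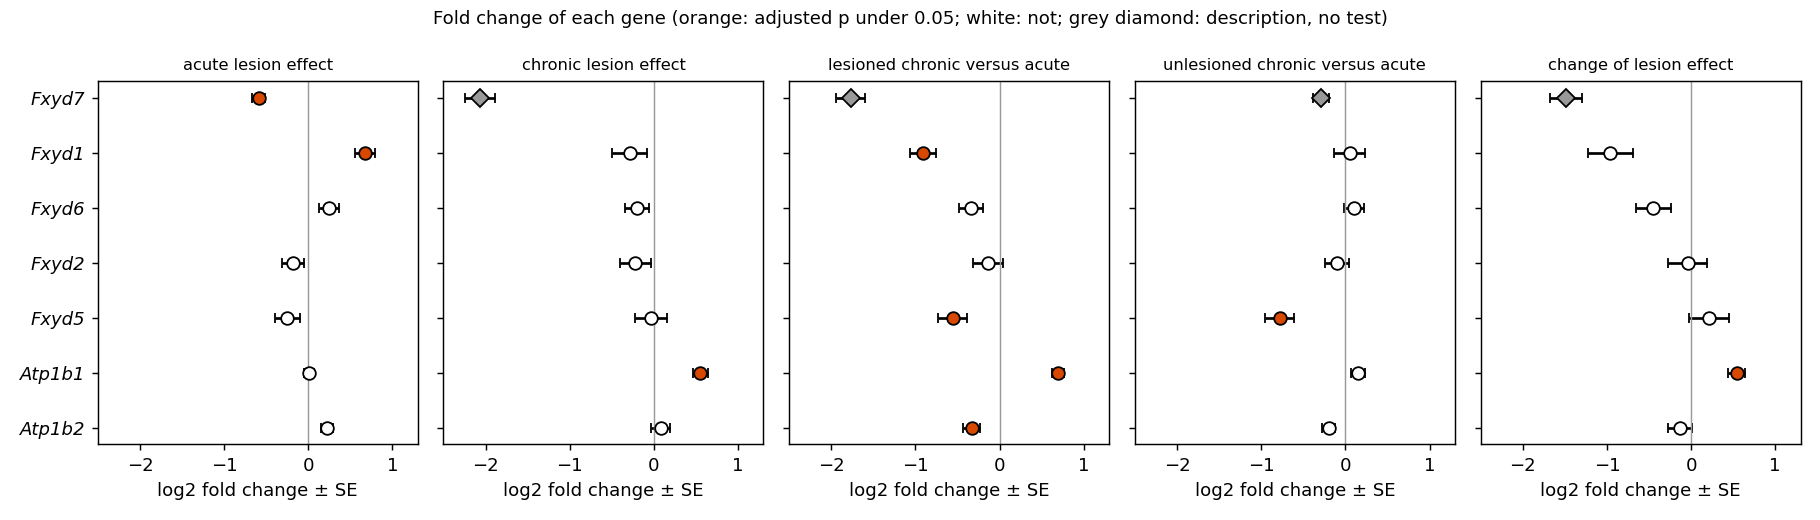
Log2 fold change with its standard error (x axis) of the 7 genes (rows) in the 5 comparisons (panels), orange where the adjusted p is under 0.05, white where it is not, and grey diamonds where Fxyd7 is described without a test. Atp1b1 lies at 0.01 in the acute and at 0.55 in the chronic lesion effect, and Fxyd1 at 0.67 and -0.29.

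Atp1b1 did not differ detectably between the sides after a single dose and rose on the lesioned side after 9 days. Its level was 223, 210 and 221 CPM in the acute unlesioned libraries and 213, 216 and 223 CPM in the acute lesioned ones, which overlapped, with a log2 fold change of 0.01 (SE 0.06, edgeR adjusted p = 0.957). The chronic unlesioned libraries held 228, 272 and 223 CPM and the chronic lesioned ones 355, 358 and 341 CPM. All 3 chronic lesioned libraries lay above all others of the study. The level rose by 0.55 (log2, SE 0.09, edgeR adjusted p = 3.23e-03), or by 46.0%, and by 0.64 without the chronic unlesioned replicate 2. Against the acute lesioned striatum it rose by 0.69 (SE 0.07, edgeR adjusted p = 1.09e-04). The medium spiny neuron markers summed to 1840 to 2000 CPM in the chronic unlesioned and 1960 to 2610 CPM in the chronic lesioned libraries. The sum was higher on the lesioned side in all 3 same-numbered pairs, but the 10 markers did not move together. Their median log2 fold change was 0.0, 5 were positive, and 3 were called higher and 1 lower. The part of these markers in the Atp1b1 rise was not tested.

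The change of the Atp1b1 lesion effect between the single and the repeated dose was 0.54 (log2, SE 0.10, edgeR adjusted p = 6.78e-03). It was past the threshold in all 18 alternative analyses, with 0.49 to 0.64, the highest without the chronic unlesioned replicate 2. All 5 Atp1b1 transcripts rose in the chronic lesion effect, by 0.50 to 0.55. Of the 12 Nme7 transcripts, the 4 that reach into Atp1b1 all rose too, by 0.48 to 0.59, while the 8 that end before it lay between -0.15 and 0.07 and none of them was called. The most abundant of the 4, at a mean level of 37.4 CPM, rose by 0.49 (SE 0.10, edgeR adjusted p = 8.48e-03), and by 0.58 without the chronic unlesioned replicate 2.

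Atp1b2 read 72.1, 70.4 and 71.7 CPM in the acute unlesioned and 90.7, 76.0 and 80.2 CPM in the acute lesioned libraries. These groups did not overlap. The log2 fold change was 0.22 (SE 0.07) and missed the threshold with an edgeR adjusted p of 0.0648, while with the replicate block it was 0.21 with an adjusted p of 0.0197. The chronic libraries held 57.2, 69.7 and 58.9 CPM on the unlesioned and 62.9, 74.1 and 59.0 CPM on the lesioned side, with a log2 fold change of 0.08 (SE 0.11), which is 0.17 without the chronic unlesioned replicate 2. Between chronic and acute it fell on the lesioned side by 0.33 (SE 0.10, edgeR adjusted p = 0.0373). This call was lost in 8 of 13 alternative analyses, 5 of them with a single library left out (acute lesioned replicates 1, 2 and 3 and chronic lesioned replicates 1 and 3), with adjusted p up to 0.137. In the same comparison 4 of the 8 astrocyte markers (median -0.30) and all 8 oligodendrocyte markers fell by edgeR, while DESeq2 called 5 and 2. Their part in the Atp1b2 value was not tested. On the unlesioned side the Atp1b2 value was -0.20 (SE 0.08), and without the chronic unlesioned replicate 2 it was -0.30 with an edgeR adjusted p of 0.0110.

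Of the 7 genes, 2 were called in the acute lesion effect, Fxyd7 lower and Fxyd1 higher, where 12.9% of all tested transcripts were called. Among the 6 genes other than Fxyd7, 1 was called in the chronic lesion effect (12% of transcripts), 4 between the lesioned groups (23.3%), 1 between the unlesioned groups (2.61%) and 1 in the change of the lesion effect (4.52%). With a single transcript per gene in the fits, the shares called were 15.4%, 13.5%, 24.8%, 2.68% and 5.1% in the same order. The counts of these few genes were not tested against either background. The median log2 fold change was 0.01 over the 7 genes in the acute and -0.12 over the 6 other than Fxyd7 in the chronic lesion effect, beside 0.01 and -0.02 over all transcripts.

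Atp1b3, the beta3 subunit, was measured beside them. It read 16.5, 15.4 and 15.9 CPM in the acute unlesioned and 19.9, 19.1 and 17.7 CPM in the acute lesioned libraries, without overlap, and rose by 0.25 (log2, SE 0.06, edgeR adjusted p = 0.0218). After 9 days it read 13.7, 16.7 and 12.5 CPM on the unlesioned and 18.2, 21.0 and 18.6 CPM on the lesioned side, again without overlap, and rose by 0.43 (SE 0.11, edgeR adjusted p = 0.0328), and by 0.56 without the chronic unlesioned replicate 2. The acute call was lost in the fit over all 12 libraries and without unlesioned replicate 2 or 3 or lesioned replicate 1 or 2, and the chronic one with the transcripts summed and without any library but the unlesioned replicate 2, with adjusted p up to 0.126. The change of its lesion effect was 0.18 (SE 0.14, edgeR adjusted p = 0.511), and 0.31 without that library (adjusted p = 0.156), both short of the threshold.

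**Figure D4:**
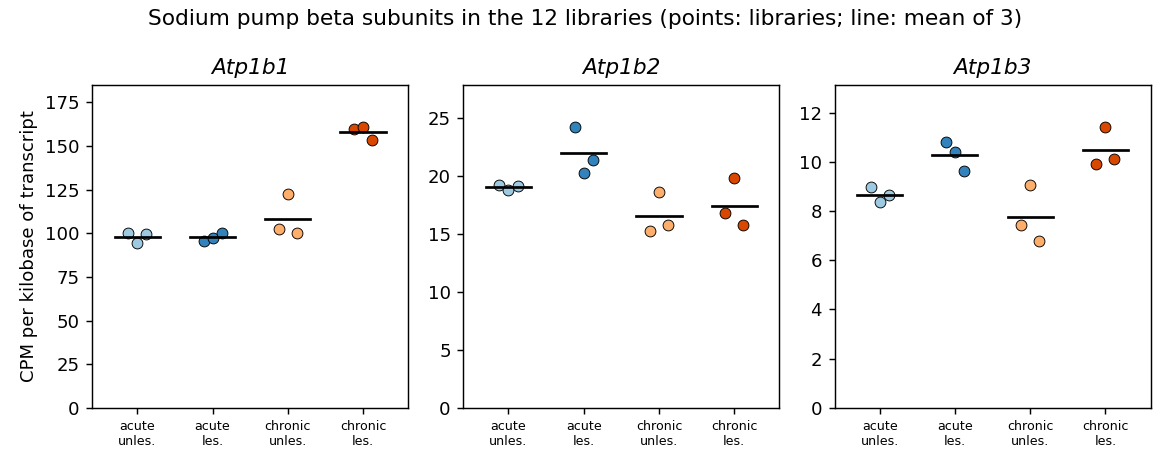
CPM per kilobase of transcript (y axes, from 0) of 3 beta subunits in the 12 libraries, with group means as lines. Atp1b1 is highest in the chronic lesioned libraries, at a mean of 158, while Atp1b3 lies at means of 10.3 and 10.5 in the lesioned and 8.68 and 7.78 in the unlesioned groups (acute and chronic).

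Fxyd3 could not be read with certainty, since its most abundant transcript overlaps Lgi4 on the opposite strand. Its log2 fold changes were 0.25 (SE 0.08, edgeR adjusted p = 0.0582, and 0.0128 with the replicate block) and 0.12 (SE 0.12), and those of Lgi4 0.21 and 0.19. Without the chronic unlesioned replicate 2 the chronic values were 0.17 and 0.25. Atp1b4 and Fxyd4 had at most 2 reads in any library and did not pass the filter.

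Another 29 genes are of sodium and ion transport or were listed as partners of the pump. They include Atp1b3, Atp1b4, Fxyd3 and Fxyd4, and 8 of them, such as Basp1, are in the list of partners. Of the 29 genes, 25 passed the filter. In the acute lesion effect 7 of them were called, 2 higher and 5 lower, where 12.9% of all transcripts were called. In the chronic lesion effect 4 were called, 3 higher and 1 lower, against 12% of transcripts, and between the lesioned groups 6, against 23.3%. Between the unlesioned groups 0 were called by edgeR (2 by DESeq2, and 3 at an unadjusted edgeR p under 0.05), and 7 without the chronic unlesioned replicate 2, when 11% of transcripts were called in place of 2.61%. In the change of the lesion effect 1 was called, Basp1, against 4.52%. With the replicate block 13 were called in the acute lesion effect, 12 in the chronic one and 5 in the change, and over all transcripts the block raised the share called to 21.8%, 21.6% and 12.1%. These counts of few genes were not tested against the background. The median log2 fold change over the 25 genes was -0.03 in the acute and -0.10 in the chronic lesion effect, beside 0.01 and -0.02 over all transcripts.

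Past the threshold and 1.5 fold, the chronic lesion effect held Basp1 and Nkain3. Basp1, a protein of the inner membrane of axon endings, went from 26.8 to 33.5 CPM on the unlesioned to 49.9 to 54.7 CPM on the lesioned side and rose by 0.80 (log2, SE 0.09, edgeR adjusted p = 2.95e-04). The change of its lesion effect was 0.85 (SE 0.12, edgeR adjusted p = 7.45e-04). Without the chronic unlesioned replicate 2 these values were 0.72 and 0.77. Nkain3, named as a protein that interacts with the pump, went from 0.832 to 1.34 CPM to 1.59 to 2.58 CPM and rose by 0.82 (SE 0.22, edgeR adjusted p = 0.0333), a call lost without the chronic unlesioned replicate 1 or the chronic lesioned replicate 1 or 2, and 0.85 without the chronic unlesioned replicate 2. Between the lesioned groups Nkain3 rose by 1.09 (SE 0.19) and Basp1 by 0.73 (SE 0.08), while Nkain1 fell by 0.74 (SE 0.18) and Slc12a2, the sodium, potassium and chloride cotransporter, by 0.60 (SE 0.15). The Nkain1 call was lost with DESeq2 and without the acute lesioned replicate 1 or the chronic lesioned replicate 1 or 3, with adjusted p up to 0.0673. That of Slc12a2 was lost with the transcripts summed and without the acute lesioned replicate 1 or 2 or the chronic lesioned replicate 1 or 3, with adjusted p up to 0.0808. In this comparison all 8 oligodendrocyte markers (median -0.84) and 6 of 8 microglia markers (median -0.61) fell by edgeR, while DESeq2 called 2 and 6. Their part in the falls of Nkain1 and Slc12a2 was not tested.

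Slc8a2, a plasma membrane exchanger of sodium for calcium, was below 1.5 fold and is named after its values were seen, as a gene called in both lesion effects. It fell by 0.47 (SE 0.07, edgeR adjusted p = 1.05e-03) after the single dose and by 0.48 (SE 0.10, edgeR adjusted p = 9.43e-03) after 9 days, and the change between these effects was -0.01 (SE 0.12). Without the chronic unlesioned replicate 2 the chronic value was -0.53 and the change -0.05. The cortical markers, lower on the lesioned side in all 6 same-numbered pairs, went the same way, and their part in the Slc8a2 values was not tested.

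**Figure D5:**
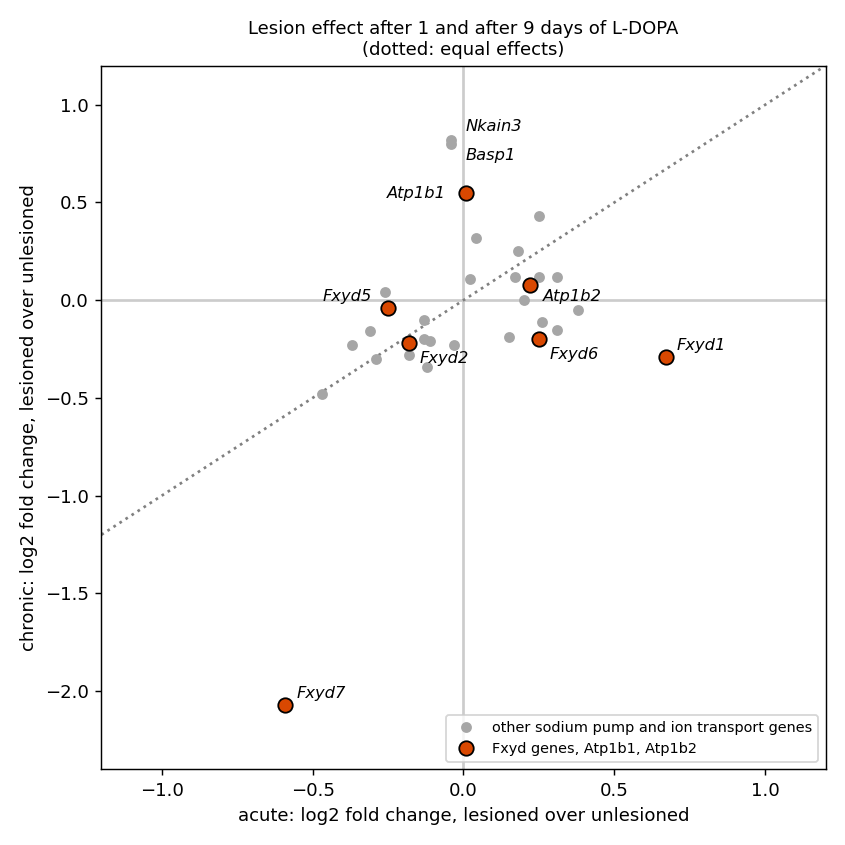
Log2 fold change of lesioned over unlesioned striatum after a single dose (x axis) and after 9 days (y axis), with equal effects on the dotted line. The 7 genes are orange, and 25 other genes of sodium and ion transport or listed as pump partners are grey. Fxyd7 lies at -0.59 and -2.07, Atp1b1 at 0.01 and 0.55, and Fxyd1 at 0.67 and -0.29.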

How the data were processed

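Punches of lesioned and unlesioned striatum of hemiparkinsonian mice were sequenced as 12 libraries, 3 per group. The authors mapped the reads to mm9 and deposited raw read counts per transcript for 189660 transcripts, which were used here. How reads with several positions or overlapping transcripts were assigned is not given in the sources used here. Tables of the authors' own comparisons (p-values and fold changes from DESeq) were not used, nor were 48 columns of per-sample values. Transcripts that name no gene (296, with 0.0485% of counts) were left out.

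The 5 comparisons were the acute and the chronic lesion effect, chronic versus acute on each side, and the change of the lesion effect. Each was tested with edgeR 4.0.16 (R 4.3.3; filterByExpr, TMM, glmQLFit, glmQLFTest; each comparison of 2 groups on its 6 libraries, the change on all 12), with Benjamini-Hochberg adjustment over all transcripts. Standard errors come from the fold change and its F statistic. The fits were tested on simulated data. The members and lists were chosen with earlier results of these data known.

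Some genes of the planned lists are not reported here and are left out of the counts. Named genes were the members, other pump subunits, other list genes past the threshold and 1.5 fold, and the 5 genes most like Fxyd7. Genes overlapping a member and label checks were added. Alternatives were DESeq2 1.42.0, its size factors, no filter, a single transcript or the sum per gene, a fit over all 12 libraries, a replicate block and each library left out.

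The labels state 12 mice, 3 per condition. Over 12795 genes, departures from the group mean correlated between the 2 sides for libraries of the same number. The values were 0.383 to 0.501 in the acute and 0.160 to 0.573 in the chronic groups. Each was above 0.1, so the numbers were taken to pair the 2 sides. Libraries of different numbers reached -0.14 in the acute and 0.153 in the chronic groups, so the chronic pairing is less clear. The main tests used no block. The study's text describes the unlesioned side as a control within the same animal but does not say which libraries share a mouse, so which libraries pair comes from the data. If both sides are from the same mouse, the number of mice is smaller than the labels state, and the sources used here do not settle this. Between acute and chronic libraries of the same number the values ran from -0.136 to 0.231, not each above 0.1, and were not taken to pair. Replicate counts of no 2 libraries agreed within sampling noise (chi-square per degree of freedom at least 7.35). A single value of 3 against 3 libraries cannot go below p = 0.1 in an exact permutation test, so none was run. Reads carry no molecular identifiers, and nothing printed here covers more than the spread between these libraries.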

Additional observations from a re-analysis of the deposited data

Results flagged for a closer look

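By edgeR's interaction term over all 12 libraries, the lesion effect differed between single and repeated dose for 4 of the named genes tested. Fxyd7 was not tested. Of all tested transcripts 4.52% were called. The differences, chronic minus acute on the log2 scale, were 0.54 for Atp1b1, 0.85 for Basp1, 0.45 for Nme7, whose transcript shares its end with Atp1b1, and 0.98 for Drd1a, which serves as a check of the labels. In the same order they were 0.64, 0.77, 0.55 and 0.94 without the chronic unlesioned replicate 2. In Atp1b1, Basp1 and Nme7 all 3 chronic lesioned libraries lay above all 3 chronic unlesioned ones, while the acute groups overlapped. Drd1a was lower on the lesioned side without overlap at both times. Leaving out a library ended the call in 0 of 12 fits for Atp1b1, Basp1 and Drd1a and in 6 of 12 for Nme7 (acute unlesioned replicates 1 and 3, acute lesioned 1 and 2, chronic unlesioned 1 and 3), with adjusted p up to 0.0816. The 8 Nme7 transcripts that end before Atp1b1 were not called in this change (edgeR adjusted p at least 0.694), so Nme7 is not a result apart from Atp1b1. With the replicate block Fxyd1, Nkain1, Nkain3, Slc12a2 and Fosb were called too (edgeR adjusted p 2.46e-03 to 0.0425), where 12.1% of transcripts were called. With groups of 3 libraries no test for a single deviating library was run.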

How the results depend on the processing

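Under the alternatives that leave out no library, 198 of 211 tested fold changes of the 7 genes kept their direction and their side of the threshold, and of those that leave out a library 186 of 222 did. The described values of Fxyd7 kept their direction in all of these. Atp1b1 in the acute lesion effect, near 0 throughout, was -0.0045 without the filter on low counts and -0.0027 with the transcripts of a gene summed. With a single library left out, directions changed for Atp1b1 in the acute lesion effect (-0.022 to 0.024), for Fxyd1 (-0.46 to 0.014), Fxyd5 (-0.13 to 0.079) and Atp1b2 (-0.016 to 0.17) in the chronic lesion effect, for Fxyd2 between the lesioned groups (-0.28 to 0.036), for Fxyd2 (-0.18 to 0.028) and Fxyd1 (-0.27 to 0.22) between the unlesioned groups, and for Fxyd2 in the change of the lesion effect (-0.19 to 0.13). None of these was called. The 2 Fxyd1 reversals came from leaving out the chronic unlesioned replicate 2, and their cause was not tested.

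Leaving out a library moved the number of genes called, Fxyd7 set aside in comparisons with chronic libraries, to 2 to 5 (from 4) between the lesioned groups, 0 to 2 (from 1) between the unlesioned groups and 1 to 2 (from 1) in the change. Of the 29 other genes, 25 passed the filter in the main fits. Of them 3 to 7 (from 7) were called in the acute and 2 to 4 (from 4) in the chronic lesion effect. Between the lesioned groups 2 to 8 (from 6) were called, and 0 to 7 (from 0) between the unlesioned groups. The 7 between the unlesioned groups came without the chronic unlesioned replicate 2. Over all transcripts these fits called 7.25% to 11.7% (from 12.9%) in the acute and 7.1% to 11.5% (from 12%) in the chronic lesion effect. Between the lesioned groups the share was 12.4% to 28.3% (from 23.3%) and between the unlesioned groups 0.0506% to 11% (from 2.61%). In the change it was 2.87% to 7.21% (from 4.52%). The fit over all 12 libraries called 3 of the 29 genes in the acute and 8 in the chronic lesion effect. The sum over transcripts called 3 between the lesioned groups and 2 in the change, and DESeq2 2 between the unlesioned groups and 2 in the change. In the same order, the shares over all tested were 8.51%, 17.5%, 20.5%, 4.33%, 4.86% and 6.02%. With the replicate block 13, 12 and 5 of the 29 were called in the acute, the chronic and the changed lesion effect. The block called 0 of the 6 genes between the unlesioned groups, where Fxyd5 was -0.77 (adjusted p = 0.0626), as did the sum over transcripts. In the change 2 genes, Atp1b1 and Fxyd1, were called with the block, with DESeq2 and without the filter. It changed 2 other calls among the 7 genes, Atp1b2 in the acute lesion effect and, to -0.34 (adjusted p = 0.0581), between the lesioned groups, where the numbers do not pair the libraries. The cause of these differences was not tested.

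Over all transcripts the block called 28237 in place of 16684 in the acute, 27505 in place of 15295 in the chronic lesion effect and 15879 in place of 5911 in the change. Between the unlesioned groups 3366 were called, and 14377 without the chronic unlesioned replicate 2. Fxyd5 rests on the fewest reads, 47 to 154 per library.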
